A study of Mus musculus with 12 samples.

Results

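Protamines and transition proteins are the small basic proteins that replace histones in the spermatid nucleus. Their transcripts were followed here in testes of ICR mice, an outbred stock, as 5 genes chosen by symbol and matched by NCBI Gene ID: Tnp1, Tnp2, Prm1, Prm2 and Prm3. All 5 were found among the 22221 rows of the expression table. RNA sequencing gave 12 libraries in 4 groups of 3. At 3 weeks of age IMA10 mice were given 1 dose of busulfan, which alkylates DNA and depletes the germ line. They were then given gut microbiota for 2 weeks from donors treated with alginate oligosaccharide at 10 mg/kg body weight (written Aligina Oligosaccharide in the labels). IMC mice received the same busulfan treatment and then microbiota from donors given ddH2O. Sa mice received busulfan and then saline. Con mice had no treatment. Testes of IMA10 and IMC mice were taken another 3 weeks after the microbiota, and no such time is recorded here for Sa or Con mice. No source used here gives the busulfan dose or the age of Con mice, and the deposited text speaks of cultured testis without naming a culture step. The labels do not tie each library to its own animal, so the p-values reflect spread among these samples alone, and that spread may be technical.

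In the mouse, histones of the round spermatid are first replaced by transition proteins and then by protamines while the nucleus condenses. The genes are transcribed in round spermatids, their mRNAs are stored in a repressed state, and translation follows days later in elongating spermatids. Tnp1 and Tnp2 encode the transition proteins. Prm1 and Prm2 encode the arginine-rich protamines that pack sperm DNA, and PRM2 is made as a precursor that is then cleaved. Prm3 lies in the same cluster but encodes an acidic protein that is found in the cytoplasm and does not bind DNA as a protamine.

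Of the 5 genes, 4 stand together on chromosome 16 in the RefSeq annotation of GRCm38.p6, all on the minus strand: Prm1 (Gene ID 19118, 10796332 to 10796823), Prm2 (19119, 10791377 to 10792105), Prm3 (19120, 10790508 to 10790914) and Tnp2 (21959, 10787935 to 10788655). The cluster spans 8889 bases. Tnp1 (21958) lies alone on chromosome 1, minus strand, from 73015074 to 73015899. The build behind the expression values is given by no source used here, so these positions describe the reference and not the authors' counting. The 120 bases before each RefSeq start are shown, 5′ to 3′ on the minus strand, with the letters TGANNTCA or TATA in capitals.
Prm1, chr16:10796824-10796943: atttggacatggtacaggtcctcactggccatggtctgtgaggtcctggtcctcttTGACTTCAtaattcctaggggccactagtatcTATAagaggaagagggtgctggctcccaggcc
Prm2, chr16:10792106-10792225: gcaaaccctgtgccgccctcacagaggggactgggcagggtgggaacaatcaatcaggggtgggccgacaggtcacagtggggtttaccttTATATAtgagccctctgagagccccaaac
Prm3, chr16:10790915-10791034: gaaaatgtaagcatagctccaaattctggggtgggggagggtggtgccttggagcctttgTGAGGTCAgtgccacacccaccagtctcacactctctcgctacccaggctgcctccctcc
Tnp1, chr1:73015900-73016019: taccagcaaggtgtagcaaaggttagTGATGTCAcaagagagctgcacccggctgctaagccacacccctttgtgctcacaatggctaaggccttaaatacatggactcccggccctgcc
Tnp2, chr16:10788656-10788775: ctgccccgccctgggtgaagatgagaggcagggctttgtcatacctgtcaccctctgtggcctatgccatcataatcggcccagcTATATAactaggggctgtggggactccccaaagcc

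4 letter strings were searched on both strands in the 250 bases before each start. The full cAMP response element TGACGTCA, the type of site that the spermatid activator CREM binds, was in none of the 5 windows and in 1.55% of all 32851 RefSeq promoters. Its shorter core TGACG was also in none of the 5, against 17.8% of all promoters. TATAAA was found in Prm2 (12.4% of all) and CCAAT in Prm3 (33.8% of all). A looser string, TGANNTCA, was added after the sequences were seen. It lies in the windows of Prm1 (from -64 to -57 relative to the start), Prm3 (from -60 to -53) and Tnp1 (from -94 to -87), and in 11.9% of all promoters. The string TATA, added in the same way, lies in Prm1, Prm2 and Tnp2 between positions -35 and -24, and in 34% of all promoters. The TATAAA match in Prm2 overlaps its TATA matches. These are letter matches and not tests of binding.

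The libraries were unequal within groups. IMA10 replicate 3 lay at -81.1 on the first principal component (88.6% of the variance of log2 values), between the Con libraries (-167.4 to -161.2) and the 8 other busulfan libraries (24.2 to 127.6). Each result below is therefore also given without it where it changes. All 10 Sertoli cell markers and all 8 Leydig cell markers on the lists were detected and were called higher in each busulfan group than in Con. Of all tested genes, 52% in Sa, 50.8% in IMC and 47.7% in IMA10 were called higher than in Con. In the deposited table a separate name prefix marks the Con columns, and any batch effect tied to it cannot be told apart from being untreated. Values are FPKM, fragments per kilobase of transcript scaled to the mapped fragments of the library, so each gene is divided by its length. The read depth is unknown. In bulk tissue, fewer spermatids and less RNA per spermatid cannot be told apart.

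In untreated testis these genes headed the whole table. Prm2, Prm1, Tnp2 and Tnp1 ranked 1, 2, 3 and 4 of all 22221 rows in each of the 3 Con libraries, and Prm3 ranked between 85 and 89. Together the 5 genes took 0.00427%, 0.00779% and 0.54% of the summed FPKM in IMA10 libraries, 0.0339%, 0.0273% and 0.0133% in IMC libraries and 0.345%, 0.269% and 0.0273% in Sa libraries, against 6.23%, 5.93% and 6.32% in Con libraries. No busulfan library came near the untreated level, and the busulfan libraries differed among themselves far more than the Con libraries did. All 5 genes were detected in all 12 libraries.

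**Figure D1:**
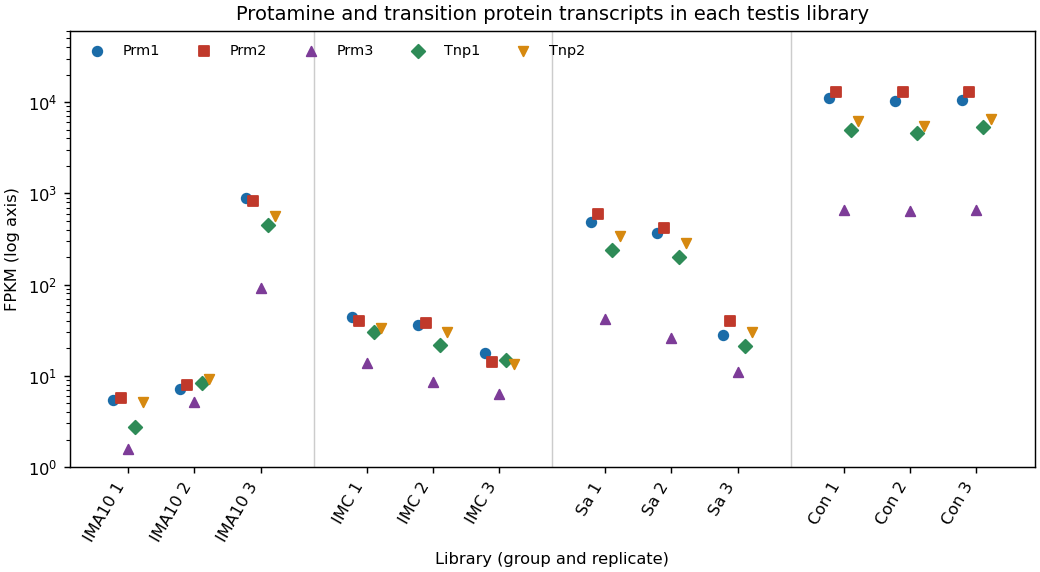
FPKM (log axis) of Prm1, Prm2, Prm3, Tnp1 and Tnp2 in each of the 12 libraries, ordered by group, 1 point per gene and library. All 9 busulfan libraries lie below the 3 Con libraries for each gene, with IMA10 replicate 3 at 91.6 FPKM (Prm3) to 880.1 FPKM (Prm1) and IMA10 replicates 1 and 2 at 1.59 to 9.31 FPKM.

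The transition proteins were measured as follows. Tnp1 had 2.74, 8.28 and 447 FPKM in IMA10 libraries, 30.1, 21.9 and 14.8 FPKM in IMC libraries and 238, 199 and 21.1 FPKM in Sa libraries, against 4970.0, 4570 and 5378 FPKM in Con libraries. Tnp2 had 5.14, 9.31 and 571 FPKM in IMA10 libraries, 33.4, 30.2 and 13.6 FPKM in IMC libraries and 345, 285 and 29.9 FPKM in Sa libraries, against 6261, 5543 and 6523 FPKM in Con libraries. For both genes IMA10 replicate 3 was the highest busulfan library, Sa replicates 1 and 2 came next, and no busulfan library reached the lowest Con library. Of all tested genes, 18.1% in IMA10, 33.2% in IMC and 31.3% in Sa lay below Con with no overlap. Tnp2 exceeded Tnp1 in 11 of 12 libraries, IMC replicate 3 being the exception. The Con mean of Tnp1 was between 11.1-fold and 1815-fold above a busulfan library, and that of Tnp2 between 10.7-fold and 1189-fold.

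For the protamines, too, IMA10 replicate 3 was the highest busulfan library and IMA10 replicate 1 the lowest. Prm1 had 5.47, 7.09 and 880.1 FPKM in IMA10 libraries, 44.1, 35.6 and 17.6 FPKM in IMC libraries and 484, 367 and 27.9 FPKM in Sa libraries, against 11022, 10299 and 10602 FPKM in Con libraries. Prm2 had 5.72, 7.84 and 817 FPKM in IMA10 libraries, 39.8, 37.9 and 14.2 FPKM in IMC libraries and 587, 418 and 40.1 FPKM in Sa libraries, against 12998, 12779 and 12824 FPKM in Con libraries. For both genes the 3 IMA10 libraries hold the highest and the lowest busulfan values, and Sa replicate 3 lies among the IMC libraries for Prm1 but just above all of them for Prm2. Prm3 had 1.59, 5.11 and 91.6 FPKM in IMA10 libraries, 13.9, 8.56 and 6.29 FPKM in IMC libraries and 42.4, 25.9 and 11.1 FPKM in Sa libraries, against 654, 640 and 655 FPKM in Con libraries. Prm3 was the lowest of the 5 genes in all 12 libraries.

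When the 9 busulfan libraries were ranked for each gene, Prm1, Tnp1 and Tnp2 gave the same order of all 9, and for Prm2 and Prm3 only the place of Sa replicate 3 among the IMC libraries differed. The spread within a group was small in Con, with a coefficient of variation of 3.41% for Prm1, 0.900% for Prm2, 1.33% for Prm3, 8.13% for Tnp1 and 8.31% for Tnp2. In Sa the coefficient was 80.9% for Prm1 and 59.1% for Prm3. In IMA10 it was 169.6% for Prm1, so the mean of that group describes none of its libraries.

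Sa against Con addresses the effect of busulfan without microbiota. All 5 genes fell. Prm3, which is at a lower level, fell by 4.75 ± 1.06 on the log2 scale (SE, limma adjusted p = 0.00253) and averaged 26.4 ± 15.6 FPKM in Sa and 649.8 ± 8.62 FPKM in Con (SD, n = 3 each). The 4 others had log2 changes between -5.39 ± 1.501 for Tnp2 and -5.95 ± 1.68 for Prm1, with limma adjusted p-values between 0.00737 and 0.00941. Of all 15472 genes tested, 19.2% were called lower and 52% higher in this comparison, and the median log2 change over all genes was 0.60. Without Sa replicate 3, the lowest Sa library, the log2 change of Prm1 was -4.66, and without IMA10 replicate 3 the errors of the 5 changes were 0.46 to 0.88.

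In IMC against Con, all 5 genes fell too. Prm2 averaged 30.6 ± 14.3 FPKM in IMC and 12867 ± 116 FPKM in Con (SD, n = 3 each) and fell by 8.80 ± 1.63 on the log2 scale (limma adjusted p = 0.000855). The log2 changes were -8.41 ± 1.68 for Prm1, -7.93 ± 1.501 for Tnp2, -7.79 ± 1.51 for Tnp1 and -6.01 ± 1.06 for Prm3, with limma adjusted p-values between 0.00064 and 0.00133. The share of all genes called was 23.3% lower and 50.8% higher, and the all-gene median was 0.52.

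In IMA10 against Con, all 5 genes fell again, with 23.9% of all genes called lower, 47.7% called higher and an all-gene median of 0.41. Prm2 fell by 8.46 ± 1.63 (limma adjusted p = 0.00153), and the log2 changes of the others were -8.21 ± 1.68 for Prm1, -7.64 ± 1.51 for Tnp1, -7.53 ± 1.501 for Tnp2 and -5.84 ± 1.06 for Prm3. Without IMA10 replicate 3 the log2 changes were -10.71 for Prm2, -10.52 for Prm1, -9.72 for Tnp1, -9.58 for Tnp2 and -7.35 for Prm3. These 3 comparisons share the Con libraries, so they are not independent of one another.

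**Figure D2:**
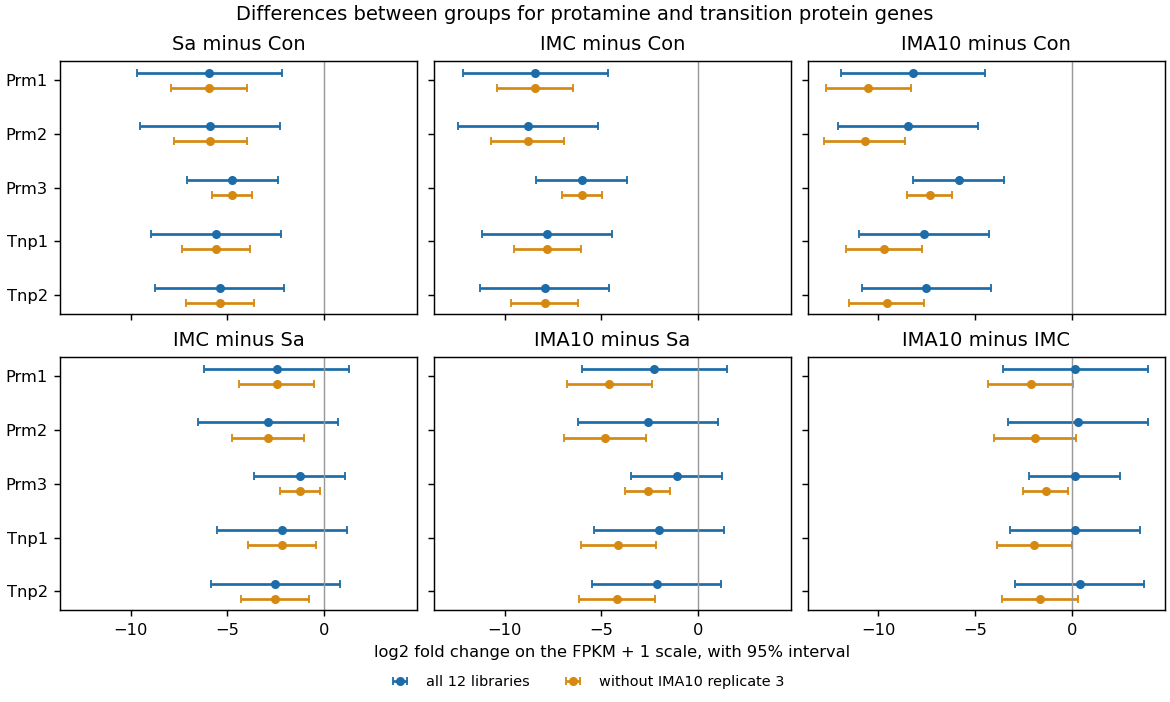
Log2 fold changes of each gene on the FPKM + 1 scale for the 6 comparisons, as points with 95% intervals from limma, with all 12 libraries and without IMA10 replicate 3. Intervals for the 3 comparisons with Con lie below 0 in both fits, and those of IMC minus Sa and IMA10 minus Sa do so only without that library.

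Whether the microbiota altered these transcripts after busulfan is the question of the remaining comparisons. In IMC against Sa, none of the 5 genes passed limma at adjusted p under 0.05, with 0% of all 15472 genes called lower, and none passed at an unadjusted p under 0.05 (0.692% of all genes, lower). Prm2 was the only 1 of the 5 whose groups did not overlap, with a highest IMC value of 39.8 FPKM against a lowest Sa value of 40.1 FPKM. Across all genes, 6.02% were lower in IMC with no overlap. The log2 difference of Prm2 was -2.90 with a 95% interval from -6.53 to 0.72, and those of the other 4 genes were -2.54 (Tnp2), -2.46 (Prm1), -2.19 (Tnp1) and -1.25 (Prm3), each with an adjusted p of 1. Sa replicate 3 lay among the IMC libraries for 4 of the genes, whereas Sa replicates 1 and 2 lay above all of them. In the fit without IMA10 replicate 3, all 5 genes had an unadjusted p under 0.05, as had 5.39% of all genes in the lower direction, and none passed after adjustment (limma adjusted p = 0.619 for each). The IMC and Sa values are the same in that fit. Only the spread shared by all 4 groups is smaller, with an error of 0.84 for Prm2 against 1.63 with all libraries.

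In IMA10 against Sa, the call depended on 1 library. With all libraries none of the 5 genes passed in limma (0% of all genes called lower, none of the 5 at an unadjusted p under 0.05, against 5.76% of all genes in the lower direction), and the log2 differences lay between -2.57 for Prm2, with a 95% interval from -6.20 to 1.06, and -1.09 for Prm3, with an interval from -3.44 to 1.26. Without IMA10 replicate 3, all 5 genes were called lower in IMA10, as were 24.5% of all genes, and 31.8% were lower at an unadjusted p under 0.05. Prm2 then differed by -4.81 ± 0.94 and Prm3 by -2.60 ± 0.52, with limma adjusted p-values of 0.0136 for both. These errors come from a spread shared by all 4 groups, and IMA10 then holds only 2 libraries. For Prm2 the coefficient of variation was 0.900% in Con and 80.4% in Sa. A fit of IMA10 and Sa alone was not run without that library. IMA10 replicates 1 and 2 lay below every Sa library for each of the 5 genes, and IMA10 replicate 3 above every one.

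In IMA10 against IMC, none of the 5 genes passed (0% of all genes called lower), and none had an unadjusted p under 0.05 (1.89% of all genes, lower). The log2 differences were between 0.16 for Tnp1, with a 95% interval from -3.21 to 3.53, and 0.40 for Tnp2, with an interval from -2.94 to 3.74. Without IMA10 replicate 3 the direction turned for all 5 genes, to between -2.12 for Prm1 and -1.35 for Prm3, and still none passed in limma after adjustment, against 0.0129% of all genes called lower. Prm3 alone then had an unadjusted p under 0.05, against 20.3% of all genes in the lower direction. The intervals with all libraries include large changes in either direction, so these values do not show that the groups are alike.

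Ratios between the genes within a library are free of library scaling. The transition protein share was higher after busulfan. The ratio of Tnp1 + Tnp2 to Prm1 + Prm2 was 0.704, 1.18 and 0.6 in IMA10 libraries, 0.757, 0.709 and 0.89 in IMC libraries and 0.545, 0.618 and 0.751 in Sa libraries, against 0.468, 0.438 and 0.508 in Con libraries. All 9 busulfan libraries lay above the highest Con library. The mean log2 ratio was -0.45 ± 0.33 over the 9 busulfan libraries (SD) and -1.09 ± 0.11 over the 3 Con libraries (SD), a difference of 0.64 (exact two-sided permutation p = 0.00909, the smallest that 9 against 3 can give, and 0.0273 adjusted over the 3 ratios tested). Without any 1 of the Con libraries the difference was 0.59 to 0.69 and did not pass (exact permutation, adjusted p = 0.109). That is the smallest p left with 1 Con library fewer, adjusted over the 3 ratios, so not passing says nothing about the difference. Prm1 was at or below 44.1 FPKM in 6 of these 9 libraries, and the depth behind such ratios is unknown.

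The ratio of Prm2 to Prm1 was 1.05, 1.11 and 0.928 in IMA10 libraries, 0.902, 1.06 and 0.804 in IMC libraries and 1.21, 1.14 and 1.44 in Sa libraries, against 1.18, 1.24 and 1.21 in Con libraries. It lay below the lowest Con library in 7 of 9 busulfan libraries and above the highest in 1. The difference of mean log2 ratios between busulfan and Con libraries was -0.19 and did not pass (exact permutation p = 0.236, adjusted 0.355). All 6 IMA10 and IMC libraries lay below all 3 Sa libraries, a split that was seen in the values and was not tested. The ratio of Tnp1 to Tnp2 was 0.533 to 0.889 in IMA10, 0.723 to 1.09 in IMC and 0.69 to 0.707 in Sa libraries, against 0.794 to 0.824 in Con libraries, with a mean log2 difference of -0.09 (exact permutation p = 0.573, adjusted 0.573).

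**Figure D3:**
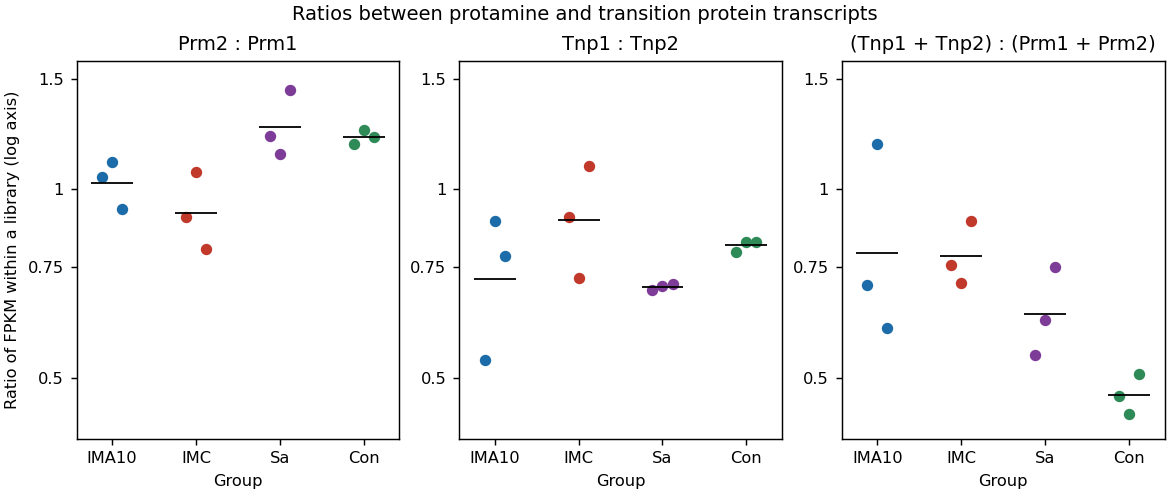
Ratios of FPKM within each library on a log axis, 1 point per library and a line at the geometric mean of the 3 libraries of a group, for Prm2 to Prm1, Tnp1 to Tnp2 and the summed transition proteins to the summed protamines Prm1 and Prm2. In the third panel the Con libraries (0.438 to 0.508) lie below all 9 busulfan libraries (0.545 to 1.18).

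Set against its own Con mean, each gene kept a different remainder. Prm3 kept the highest percentage of the 5 in 8 of 9 busulfan libraries, for example 0.245%, 0.786% and 14.1% in IMA10 libraries. Prm2 kept the lowest in 7 of 9, at 0.0445%, 0.0609% and 6.35% in those libraries, and Prm1 the lowest in the other 2. In Sa replicate 2, Tnp2 stood highest at 4.66% and Prm3 at 3.99%.

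Summed levels of 3 marker lists of meiotic and later germ cells stood in the same order in all 9 busulfan libraries. As a percent of the Con mean, the 10 spermatocyte markers kept most, then the 10 round spermatid markers, then the 12 elongating spermatid markers, and the 5 protamine and transition protein genes least. The 5 genes summed to 0.0586% to 7.96% in IMA10, 0.189% to 0.458% in IMC and 0.369% to 4.82% in Sa libraries. The elongating spermatid markers summed to 0.654% to 17.8% in IMA10, 1.65% to 3.34% in IMC and 2.58% to 8.01% in Sa libraries. In IMA10 replicate 3 alone the 4 sums were 84%, 37.8%, 17.8% and 7.96%, in the order just given, and the medians over genes were 131%, 52.9%, 14.2% and 8.99%. All 12 elongating spermatid markers fell in Sa against Con, as did 8 of 10 round spermatid markers and 2 of 10 spermatocyte markers, beside 19.2% of all genes called lower, with none of the 3 lists holding a gene that rose. Over 20 alternatives the falls numbered 12 throughout, 7 to 9 and 1 to 6, in the same order of lists. Without IMA10 replicate 3 they numbered 12, 9 and 5, where 30% of all genes were called lower. Smcp, a mitochondrial capsule protein of sperm with the highest mean of the elongating list, averaged 112 ± 72.9 FPKM in Sa and 3232 ± 52.7 FPKM in Con (SD, n = 3 each). Gsg1, highest of the round spermatid list, averaged 79.3 ± 48.4 FPKM in Sa and 1754 ± 105 FPKM in Con (SD, n = 3 each). Of 8 tested markers of spermatogonia, the earliest germ cells, 7 rose in Sa against Con, beside 52% of all genes called higher. None fell with all libraries, and 1 fell without IMA10 replicate 3. Sums were taken over all 10 spermatogonia markers on the list, tested or not. They stood at 213% to 438% of the Con mean in IMA10, 402% to 513% in IMC and 462% to 580.5% in Sa libraries. The medians over the same 10 genes were 85.9% to 266%, 245% to 386% and 487% to 565%, in the same order. Dmrt1, highest of the list, averaged 57.2 ± 6.35 FPKM in Sa and 9.21 ± 0.63 FPKM in Con (SD, n = 3 each). Whether the transcripts of this list came from spermatogonia or from other cells of the testis was not tested. In IMC against Con 6 rose and 1 fell, beside 50.8% of all genes called higher and 23.3% lower. In IMA10 against Con 4 rose and 1 fell, beside 47.7% higher and 23.9% lower, so the rises there were near the all-gene share. The marker that fell was Gfra1 in both, with log2 changes of -0.86 ± 0.24 in IMC and -1.03 ± 0.24 in IMA10.

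**Figure D4:**
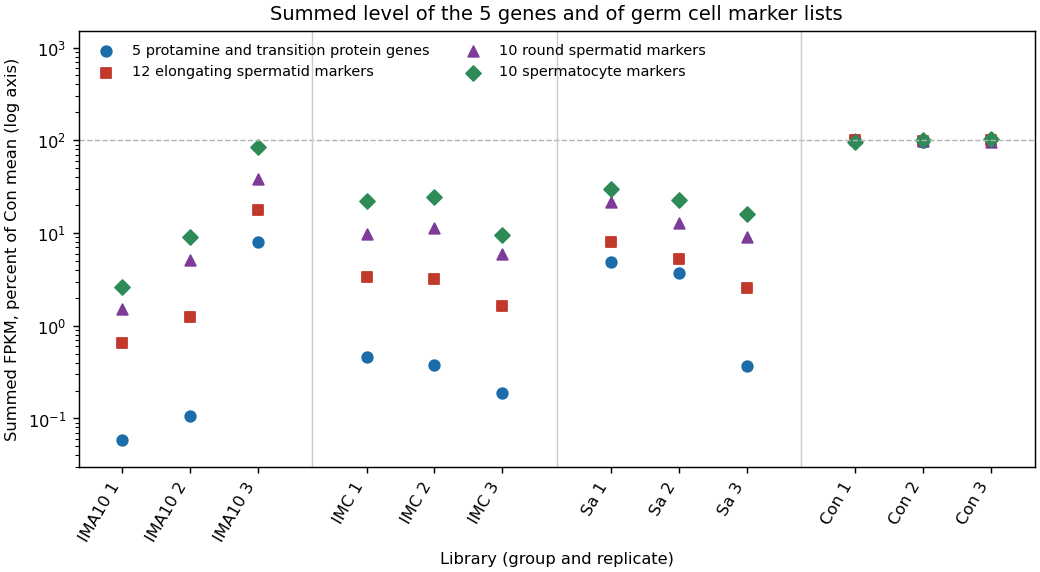
Summed FPKM as a percent of the Con mean (log axis) in each library for the 5 protamine and transition protein genes and for 3 marker lists. In all 9 busulfan libraries the 5 genes lie lowest and the spermatocyte markers highest, and in IMA10 replicate 3 the points run from 7.96% to 84%.

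Somatic markers moved the other way. Summed Sertoli markers stood at 503% to 2981% of the Con mean in IMA10, 1975% to 2318% in IMC and 1551% to 1910% in Sa libraries. Summed Leydig markers stood at 296% to 1113% in IMA10, 667% to 2096% in IMC and 686% to 1385% in Sa libraries. The lowest IMA10 value in both lists belongs to IMA10 replicate 3, where the 5 genes were highest. The part of these shifts in the fall of the 5 genes was not tested. In 3 epididymis markers found in the table, the sum was at most 0.23 FPKM in any library.

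Genes that act with protamines and transition proteins were followed as 3 lists. Of 23 genes for histone replacement, 11 fell in Sa against Con and 3 rose, beside 19.2% of all genes called lower and 52% higher, with a list median of -1.46 against 0.60 over all genes. With median-of-ratios scaling, which moves the all-gene median from 0.60 to -0.02, 19 fell and 2 rose. Under that scaling 6069 of all 15472 genes were called lower and 5847 higher. Without IMA10 replicate 3 there were 18 falls and 3 rises, where 30% of all genes were called lower and 55.5% higher. Over all 20 alternatives the falls ran from 9 to 19. Cdyl, a chromodomain protein, fell by 1.74 ± 0.15 and averaged 25.6 ± 1.14 FPKM in Sa and 87.9 ± 7.01 FPKM in Con (SD, n = 3 each). Phf7, a histone ubiquitin ligase with the highest mean of the list, averaged 308 ± 94.8 FPKM in Sa and 1368 ± 42.0 FPKM in Con but did not pass (limma adjusted p = 0.0791). Chosen after their values were seen, the spermatid histone variant H2al2a, which opens nucleosomes for transition proteins, fell by 5.18 ± 1.13, and the kinase Tssk6, needed for histone replacement and also on the elongating marker list, fell by 5.01 ± 0.89. The spermatid linker histones H1f7 and H1f9 (Hils1 in the RefSeq table) had log2 changes of -4.84 ± 1.10 and -3.82 ± 1.04. The remodeller Chd5 fell by 3.57 ± 0.80, and Camk4, a kinase that phosphorylates PRM2, fell by 2.91 ± 0.62. Testis histone H2bc1, present from earlier stages, was at 0.17 ± 0.33. The 3 that rose were the ubiquitin ligase Rnf8 by 1.32 ± 0.20, the topoisomerase Top2b by 1.88 ± 0.33, and Parp2 by 0.97 ± 0.17, which did not pass with median-of-ratios scaling or quantile normalization.

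Of 12 transcription regulators of spermatid genes, 5 fell and 2 rose in Sa against Con, with a list median of -1.73, beside 19.2% of all genes called lower and 52% higher. With median-of-ratios scaling 9 fell and 1 rose, where 6069 of all 15472 genes were called lower and 5847 higher. Without IMA10 replicate 3, 9 fell and 2 rose (30% and 55.5% of all genes), and over all 20 alternatives the falls ran from 3 to 9. Fhl5, the coactivator of CREM, averaged 10.5 ± 5.09 FPKM in Sa and 133 ± 14.8 FPKM in Con (SD, n = 3 each) and fell by 3.64 ± 0.81. Crem itself fell by 2.02 ± 0.73, and Kif17, a kinesin that moves the Fhl5 product, by 3.37 ± 0.86. Sox30 fell by 2.68 ± 0.89 and Rfx3 by 1.47 ± 0.27. Gtf2a1l, a germ cell form of a general transcription factor, averaged 49.3 ± 16.02 FPKM in Sa and 228 ± 7.34 FPKM in Con and did not pass (limma adjusted p = 0.0777). Pygo2 rose by 1.41 ± 0.17 and Brwd1 by 0.99 ± 0.23, the last not passing with median-of-ratios scaling or quantile normalization.

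Of 19 genes for mRNA storage and translation, 3 fell and 5 rose in Sa against Con, with a list median of -1.24, beside 19.2% of all genes called lower and 52% higher. The counts of this list moved most with the settings. Without IMA10 replicate 3, 12 fell and 5 rose (30% and 55.5% of all genes). With median-of-ratios scaling 12 fell and 2 rose, where 6069 of all 15472 genes were called lower and 5847 higher. Over all 20 alternatives the falls ran from 1 to 13 and the rises from 2 to 6. Ybx2, which stores protamine mRNA and had the highest mean of the list, averaged 350 ± 138 FPKM in Sa and 1790 ± 27.2 FPKM in Con and did not pass (limma adjusted p = 0.0734). Fxr1, an activator of stored spermatid mRNA, fell by 2.18 ± 0.50 and was called lower under each scaling. Papolb, the testis poly(A) polymerase, fell by 2.53 ± 1.03 and Ybx1 by 1.24 ± 0.49, but neither passed with quantile normalization or with equal FPKM sums. Tsn rose by 1.13 ± 0.14 and its partner Tsnax by 1.498 ± 0.25, and both were called higher under each scaling. Celf1, Elavl1 and Qk also rose, by 1.61 ± 0.48, 0.67 ± 0.13 and 0.77 ± 0.21, and did not pass with median-of-ratios scaling, nor did Celf1 and Elavl1 with quantile normalization. Of the genes of this list, Papolb, Ybx1, Fxr1, Celf1 and Qk were chosen for naming after their values were seen, as were Crem, Kif17, Sox30 and Brwd1 of the regulators and H1f7, H1f9, Chd5, Camk4, Parp2 and H2bc1 of the histone replacement genes.

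The same lists were counted in the other busulfan groups. In IMC against Con, 14 of 23 histone replacement genes fell, 7 of 12 transcription regulators and 6 of 19 storage genes, and 3, 2 and 6 rose, beside 23.3% of all genes called lower and 50.8% higher. Without IMA10 replicate 3 there were 19, 9 and 13 falls and 3, 2 and 6 rises. Of all 15472 genes, 4992 were then called lower and 8280 higher. In IMA10 against Con, 14, 8 and 9 fell and 3, 2 and 4 rose, beside 23.9% and 47.7% of all genes. Without IMA10 replicate 3 there were 19, 10 and 12 falls and 3, 2 and 5 rises. Of all 15472 genes, 5438 were then called lower and 7962 higher. In IMC against Sa no gene of the 3 lists passed in limma, and in IMA10 against Sa 14, 9 and 13 were lower in IMA10 and 0, 0 and 1 higher once IMA10 replicate 3 was left out (24.5% of all genes called lower), against 0 in each list with it.

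**Figure D5:**
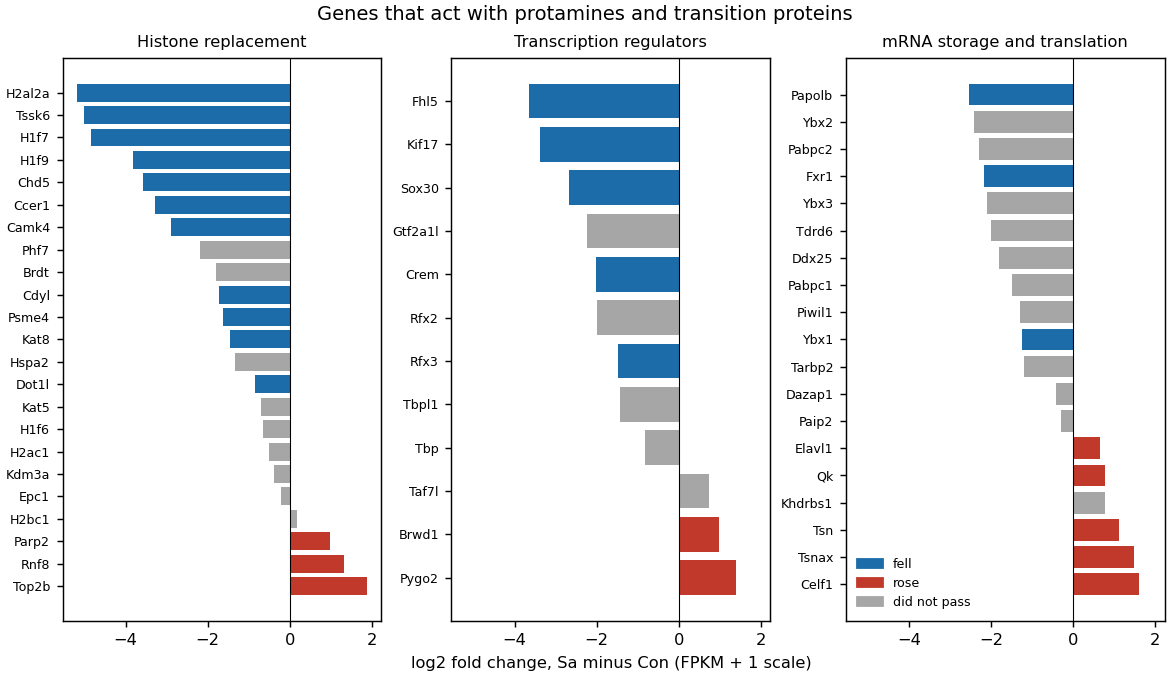
Log2 fold change of Sa minus Con on the FPKM + 1 scale for the 23 genes of histone replacement, 12 transcription regulators and 19 genes of mRNA storage, coloured by limma call at adjusted p under 0.05. Bars run from -5.18 (H2al2a) to 1.88 (Top2b).

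The genes whose pattern was most like that of the 5 were found from the root mean square difference of log2(FPKM + 1) profiles over 12 libraries, each centred on its own mean. Prm1 and Prm2 were each other's nearest of 15471 genes, at 0.21 log2 units, and so were Tnp1 and Tnp2, also at 0.21. For these 4 genes the other 3 took ranks 1 to 4 among all genes. Outside the 5, Spem1, needed for shaping sperm, was nearest to Tnp2 (0.48), Tnp1 (0.50), Prm1 (0.72) and Prm2 (0.79). The next were the uncharacterised genes 1700015G11Rik and 1700092M07Rik for Prm1 and Prm2, and Spata3 and 1700015G11Rik for Tnp1 and Tnp2. Prm3 stood apart from the other 4: its nearest genes were 4930571K23Rik (0.12), 1700029H14Rik (0.15) and the ubiquitin-like gene Ubl4b (0.16), while Tnp1 ranked 331 and Prm1 ranked 657. The pseudocount compresses low values and so affects Prm3 more than the others.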

How the data were processed

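The authors deposited 1 table of FPKM values for 12 libraries, per the file headers. The aligner, counting program, build and any filter: not given in the sources used here. All 12 columns were used. No step of 1 read was seen among low values (at most 12 genes had a ratio of libraries in common), so no reads were recovered, the depth is unknown and no counting interval is given. Symbols came from Gene IDs in a RefSeq table (GRCm38.p6), which matched 20141 of 20288 numeric IDs, and promoter sequences from RefSeq of the same build (all 5 genes matched).

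Values were analysed as log2(FPKM + 1) for 15472 genes that reached 1 FPKM in 3 or more libraries. All 5 genes passed this filter. Fold changes are on that scale and understate the change of low genes. limma 3.58.1 under R 4.3.3 fitted all 12 libraries together, giving each group its own mean and letting the variance follow a trend. P-values were adjusted over all genes by Benjamini-Hochberg and called at 0.05. Ratios used raw FPKM and an exact permutation test over libraries (scipy 1.17.1). The fit was tested on simulated data with the same spread in every group. The groups here differ in spread, so that test does not cover this feature.

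The 5 genes and all lists were chosen with earlier results of these data known, and the lists are described by counts and medians with no set test. Named list genes are the 3 with the smallest p in Sa minus Con and the highest mean of each list, and any others are said to be chosen after seeing values. The genes named as most alike are the 3 nearest per gene. The closing section gives the effect of scaling, pseudocount, filter, the fitted groups, a replicate block and leaving out each library.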

Additional observations from a re-analysis of the deposited data

How the results depend on the processing

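All 5 genes were called lower in Sa, IMC and IMA10 against Con under each of the 20 alternatives run: pseudocount 0.1, no filter, a filter of 5 FPKM, 3 scalings, fits of only the groups compared, a replicate block, and leaving out each of the 12 libraries. Over these, Prm1 in Sa minus Con ranged from -6.75 to -4.66 (log2), Prm2 in IMC minus Con from -9.52 to -8.34 and Prm3 in IMA10 minus Con from -7.35 to -4.77. None of the 5 was called in IMC minus Sa or in IMA10 minus IMC under any of them. In IMA10 minus Sa the number called was 0 in 19 alternatives and 5 without IMA10 replicate 3. In IMA10 minus IMC the sign reversed without IMA10 replicate 3 (Prm1 -2.12, Prm2 -1.91, Prm3 -1.35, Tnp1 -1.93, Tnp2 -1.65) and without IMC replicate 3 (Prm1 -0.18, Prm2 -0.13, Prm3 -0.07, Tnp1 -0.10), and the highest values with a library left out were 1.43, 1.56, 1.23, 1.53 and 1.62 for Prm1, Prm2, Prm3, Tnp1 and Tnp2. The cause was not tested. The higher ratio of transition proteins to protamines was 0.65 (log2) with 1 FPKM added. With libraries left out in turn it was 0.55 to 0.69, with an adjusted p of 0.109 without any 1 of the Con libraries, where fewer libraries raise the smallest p that the test can give.

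Same-numbered libraries mostly did not deviate together: 13 of 18 pairs had a correlation of deviations of 0.1 or less (from -0.77 to 0.55). The highest correlation was that of replicate 3 in IMC and Sa. With 3 libraries a group, this check cannot decide whether the numbers pair the samples. With the replicate block 5 genes were called in each comparison with Con and 0 in the others. The log2 change of the summed level of the 5 genes, with a library left out, ran from -10.30 to -6.76 in IMA10 minus Con (-8.09 with all), from -8.54 to -7.90 in IMC minus Con (-8.29) and from -6.42 to -4.57 in Sa minus Con (-5.74). The depth behind values under 10 FPKM is unknown.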

Other observations

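Socs1, beside the cluster, moved the other way. Socs1, a suppressor of cytokine signalling whose RefSeq gene ends 2.4 kb from Tnp2, had 3.71, 4.11 and 3.12 FPKM in IMA10 libraries, 4.04, 5.05 and 5.15 FPKM in IMC libraries and 5.8, 4.91 and 4.85 FPKM in Sa libraries, against 2.47, 2.06 and 1.46 FPKM in Con libraries. It rose by 1.06 ± 0.18 in Sa against Con (log2 ± SE, limma adjusted p = 0.000553). Of all genes, 52% were called higher and 19.2% lower in this comparison, with an all-gene median of 0.60. A rise is thus shared with many genes and not particular to Socs1. Rmi2, a genome stability factor 38.2 kb beyond Prm1, was at or below 0.85 FPKM in all 12 libraries and was not tested. Around Tnp1, the nearest neighbours analysed here are Igfbp5, 140.2 kb away, and Tns1, 894 kb away. Igfbp5 rose by 1.26 ± 0.22 in Sa against Con, from values near the floor. It had 0.08, 0.11 and 0.16 FPKM in Con and 1.02, 1.84 and 2.32 FPKM in Sa libraries. It thus passed the filter of 1 FPKM only through busulfan libraries. Tns1 fell by 1.44 ± 0.22 in Sa against Con.

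When likeness of pattern was measured over the 9 busulfan libraries alone, Prm1 and Prm2 (0.23 log2 units) and Tnp1 and Tnp2 (0.24) were again each other's nearest genes, and Spata3 was the nearest gene outside the 5 for Prm1, Tnp1 and Tnp2.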
